A study of Mus musculus with 24 samples.

Results

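ATF4 is the transcription factor that cells make when amino acids run short or proteins misfold, and its targets build, import and conserve amino acids. The genes described here are 35 such genes, named by symbol as known members of the pathway, with no rule on their measured values, of 26338 genes listed in the deposited tables. They were chosen with earlier results of these data known, so their shares beside those of all genes are descriptive. All 35 were listed and tested in both tables. They fall into stress transcription factors and their regulators (Atf4, Atf3, Atf5, Ddit3, Cebpb, Cebpg and Nupr1), feedback genes and growth brakes (Trib3, Chac1, Sesn2, Ddit4, Eif4ebp1 and Vldlr), enzymes of serine, glycine and folate-linked carbon metabolism (Phgdh, Psat1, Psph, Shmt1, Shmt2, Mthfd2, Mthfd1l and Aldh1l2), enzymes of asparagine, proline, alanine and cysteine synthesis (Asns, Aldh18a1, Pycr1, Gpt2, Cth and Cbs), and amino acid transporters (Slc7a11, Slc7a5, Slc3a2, Slc7a3, Slc7a1, Slc6a9, Slc1a4 and Slc1a5).

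The poly(A) RNA of 24 mouse stem cell libraries was compared, with 2 libraries in each of 12 groups. The first table holds untreated wild-type J1 cells in 3 states. Embryonic stem cells (ESCs) were grown in serum with LIF and the GSK3 and MEK inhibitors of 2i. Extended pluripotent stem cells of the Deng protocol (D-EPSCs) were grown in N2B27 with serum replacement, LIF, CHIR99021, dimethindene maleate and minocycline. Expanded potential stem cells of the Liu protocol (L-EPSCs) had more serum replacement, with LIF and inhibitors of GSK3, MEK, Src, tankyrase, JNK and p38. The base media of the 3 states differed, and non-essential amino acids were added to each. The second table holds 3 tet-off conditional knockout lines (cKO), ZHBTc4 for Oct4, 2TS22C for Sox2 and NgcKO for Nanog, each as untreated ESCs, untreated L-EPSCs and doxycycline-treated (Dox) L-EPSCs. In all of these cells, untreated ones included, the endogenous gene is deleted and a transgene that Dox switches off supplies the factor, so each line is its own model and has no wild-type partner. The dose and duration of Dox for these libraries are not given in the labels. Medium and cell state changed together in every conversion, and no line without a tet-off transgene received Dox, so these pairs cannot be told apart.

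As background, kinases that sense amino acid shortage, misfolded protein, heme lack or double-stranded RNA phosphorylate the translation initiation factor eIF2. General protein synthesis then slows while the Atf4 message is translated more, and ATF4 dimerizes with C/EBP proteins on short composite sites in its target promoters. Mouse ESCs are known for a strong dependence on serine, glycine and threonine metabolism and on proline supply, which is why this pathway is of interest in their culture. The libraries measure messages, so ATF4 protein and its translation were not seen.

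The promoters of some members carry the letters through which ATF4 and C/EBP dimers are known to act. The motif TGATGNAA was searched on both strands in the RefSeq promoter windows of GRCm38.p6, which run from 250 bases before to 50 bases after each gene's start. A window was at hand for 29 of the 35 members, and 9 of these 29 (31.0%) held the motif, against 4.51% of the 27025 genes with a window. The matches are shown with their neighbouring bases because the 9 genes are set beside the other members at the end. Each is written on the gene's strand, and capitals mark the motif, where TTGCATCA is TGATGCAA read from the opposite strand.
Atf3 (chr1:191183420-191183459, minus strand): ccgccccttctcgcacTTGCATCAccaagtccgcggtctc
Nupr1 (chr7:126625557-126625596, minus strand): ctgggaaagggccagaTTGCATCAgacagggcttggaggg
Trib3 (chr2:152344023-152344062, minus strand): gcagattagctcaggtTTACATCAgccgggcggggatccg
Chac1 (chr2:119351033-119351072, plus strand): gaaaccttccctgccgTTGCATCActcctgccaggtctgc
Vldlr (chr19:27216804-27216843, plus strand): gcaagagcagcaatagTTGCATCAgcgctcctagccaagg
Asns (chr6:7693209-7693248, minus strand): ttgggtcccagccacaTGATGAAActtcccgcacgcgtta
Pycr1 (chr11:120643828-120643867, minus strand): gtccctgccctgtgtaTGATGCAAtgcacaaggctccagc
Slc7a11 (chr3:50443637-50443695, minus strand): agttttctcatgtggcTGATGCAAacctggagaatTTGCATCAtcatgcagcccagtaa
Slc1a4 (chr11:20332694-20332733, minus strand): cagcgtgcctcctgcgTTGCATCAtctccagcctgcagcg
Slc7a11, the cystine importer, held a pair of sites in opposite orientation, and the other 8 held 1 each. Trib3 was the gene whose match lay after its start, and the other matches began between 4 and 200 bases before it. The match of Slc1a4, which began 4 bases before, is 8 bases long and so runs across the start. A match is a string of letters and does not show binding, and no match says only that these letters are not in the window. Cth, Aldh1l2, Eif4ebp1, Slc7a3, Slc1a5 and Slc7a5 had no window to search.

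Between 10807631 and 15069899 reads fell on genes per library. The values are normalized counts, that is, reads divided by a size factor of each library, and the 2 tables were normalized separately, so levels are compared within a table only. Replicates lay close together, with edgeR coefficients of variation of 0.0281 (J1) and 0.0301 (tet-off). The labels do not say whether replicates are separate cultures, so p-values measure the spread between these libraries, which may be technical. The depleted factors followed the labels: with Dox, Pou5f1 fell from 6420.1 and 6316 to 162 and 184 in the Oct4-cKO line, Sox2 from 4966 and 4701 to 47 and 53.1 in the Sox2-cKO line and Nanog from 9119 and 8847 to 3166 and 3112 in the Nanog-cKO line. All 8 pluripotent cell markers were present in every group. In J1 their sum ranged from 69761 to 70112 in ESCs, 38214 to 38672 in D-EPSCs and 46845 to 47492 in L-EPSCs. Markers of other cell types were also detected. The 10 fibroblast markers summed to between 100423 and 102587 in ESCs, 61504 and 61570 in D-EPSCs and 22694 and 23238 in L-EPSCs, none of them at 0. The 7 macrophage markers summed to between 2427 and 2462 in ESCs, against 18839 to 18990 in D-EPSCs and 15244 to 15257 in L-EPSCs, none of them at 0. In the tet-off libraries the 9 fibroblast markers listed summed to between 55.3 and 589 and the macrophage markers to between 232 and 789, with 2 to 4 of the former and 0 to 3 of the latter at 0 in both libraries of a group, Lum and Tyrobp most often.

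**Figure D1:**
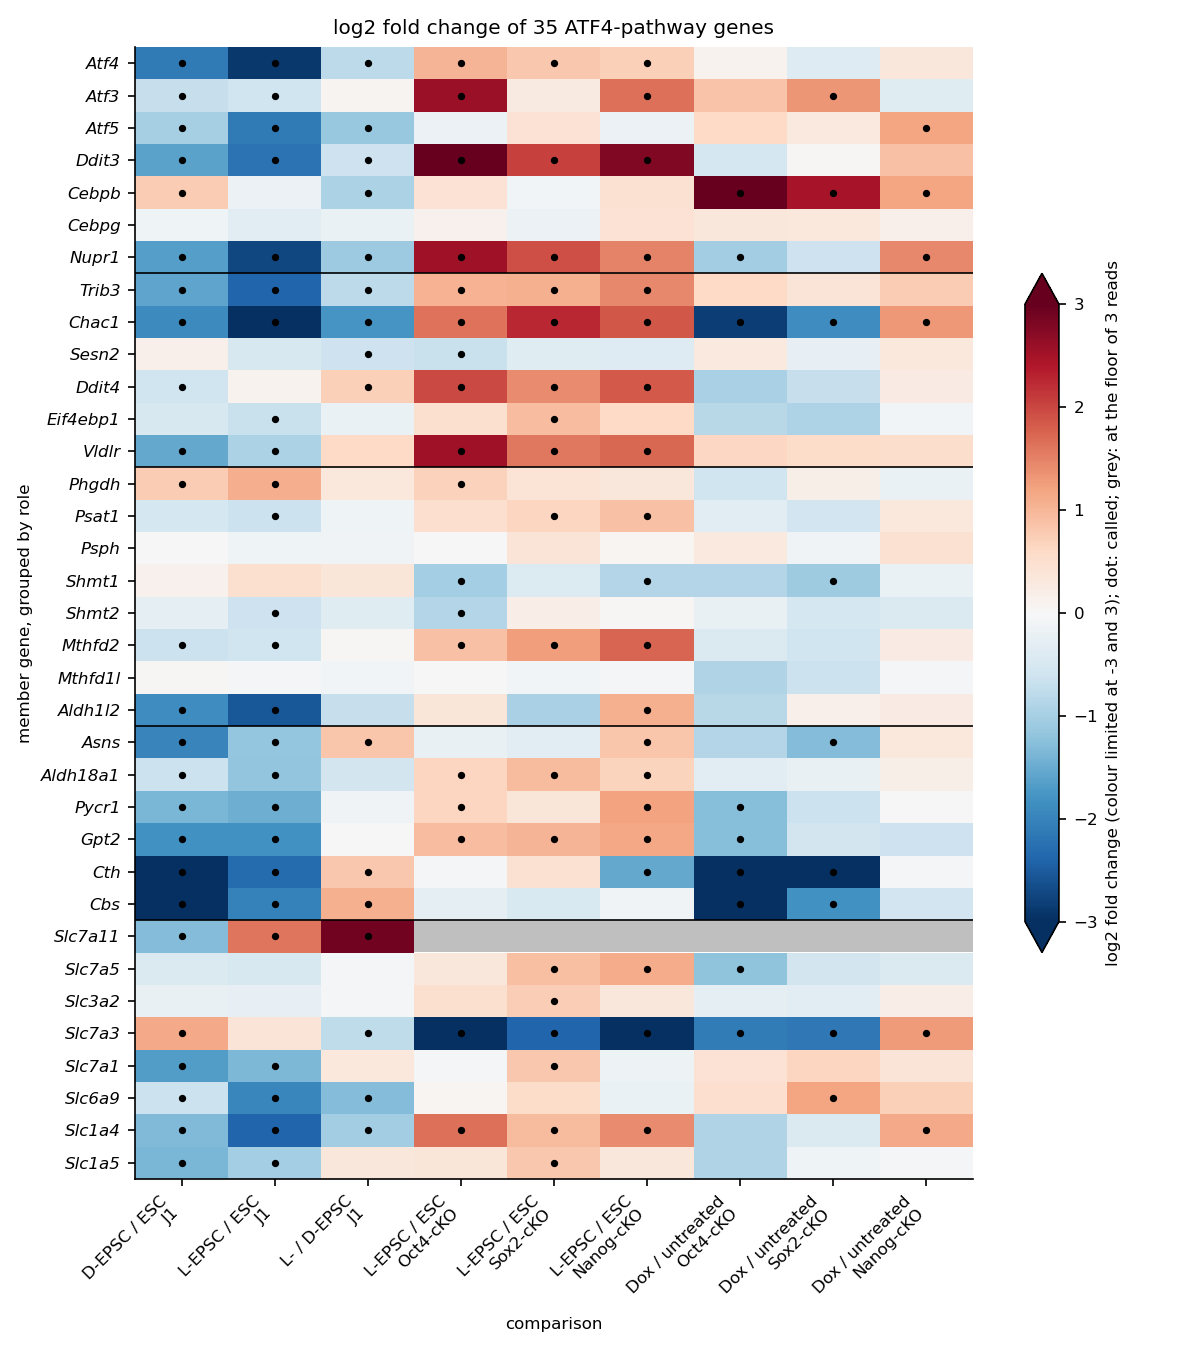
Log2 fold changes of the 35 genes (rows, grouped by role) in the 9 comparisons (columns), with colour limited at -3 and 3. A dot marks a call, and grey marks a gene at the floor of 3 reads. The first 2 columns are mostly blue (22 and 23 members called lower), while the columns of the tet-off conversions are mostly red (14, 17 and 17 called higher).

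The J1 comparisons ask how the pathway differs between ESCs and each EPSC state. Most members were lower in both EPSC states than in ESCs. In D-EPSCs 22 of 35 members (62.9%) were called lower and 3 (8.57%) higher, where 9.98% and 10.8% of the 21533 genes tested were called in these directions. In L-EPSCs 23 members (65.7%) were called lower and 2 (5.71%) higher, against 11.5% and 8.80% of the genes tested. A gene was called at an adjusted p under 0.05 with a log2 fold change beyond 0.6. Restricting the background to the 14255 genes averaging 10 or more normalized counts gave shares called lower of 12.7% and 14.6%. The median log2 fold change of the members was -0.68 in D-EPSCs and -0.95 in L-EPSCs, beside 0.01 and 0.00 over all genes tested. Both comparisons use the same ESC libraries, so they are not independent of each other.

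Atf4 itself (chr15:80085614-80087970 of NCBIM37, plus strand) was measured at 4421 and 4512 normalized counts in ESCs, 1026 and 1025 in D-EPSCs and 577 and 623 in L-EPSCs. The 3 states did not overlap, with ESCs highest and L-EPSCs lowest. Its log2 fold change against ESCs was -2.12 ± 0.05 (standard error) for D-EPSCs and -2.90 ± 0.05 for L-EPSCs, with adjusted p of 5.5e-08 and 1.6e-08 by limma. The step from D-EPSC to L-EPSC was -0.77 ± 0.05.

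The other stress factors mostly followed the same order. Ddit3, which encodes the proapoptotic factor CHOP, stood at 502 and 475 in ESCs, 144 and 179 in D-EPSCs and 108 and 101 in L-EPSCs. Its log2 fold changes against ESCs were -1.60 ± 0.13 and -2.21 ± 0.13, with no overlap between ESCs and either EPSC state. Nupr1, a small stress-induced chromatin protein, went from 1061 and 1041 in ESCs to 319 and 352 in D-EPSCs and 159 and 155 in L-EPSCs, log2 fold changes of -1.65 ± 0.08 and -2.73 ± 0.08. Atf5, a relative of Atf4 that is translated under the same control, had values of 1449 and 1559, 719.9 and 785 and 332 and 353 in the same order of states. These 3 genes, like Atf4, were highest in ESCs and lowest in L-EPSCs. Atf3, a repressor that is itself induced by ATF4, was called lower by a smaller margin (-0.68 in D-EPSCs and -0.61 in L-EPSCs). Cebpb, a dimer partner of ATF4, was the 1 factor of the 7 called higher in D-EPSCs, from 146 and 148 in ESCs to 253 and 249 (0.76 ± 0.10), and stood at 129 and 132 in L-EPSCs. Cebpg, the other partner, was called in neither state (-0.12 and -0.31).

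Of the 6 feedback genes and growth brakes, 4 were called lower in each EPSC state. Chac1, which degrades glutathione, measured 264 and 282 in ESCs, 71.5 and 72.4 in D-EPSCs and 21.6 and 19.5 in L-EPSCs. At -3.67 ± 0.17 it had the lowest value of any member in L-EPSCs. Trib3, the pseudokinase that restrains ATF4 and CHOP, measured 758 and 884, 277 and 271 and 157 and 157 in ESCs, D-EPSCs and L-EPSCs, so the states did not overlap. Vldlr, a lipoprotein receptor that was only counted with this group, was called lower in both EPSC states (-1.54 ± 0.27 and -0.95 ± 0.27). The growth brakes Ddit4, Eif4ebp1 and Sesn2 had smaller values. Ddit4 was called lower in D-EPSCs (-0.61) and stood at 0.11 in L-EPSCs, Eif4ebp1 was called lower in L-EPSCs (-0.68), and Sesn2 was called in neither (0.14 and -0.48).

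All 6 enzymes of asparagine, proline, alanine and cysteine synthesis were called lower in both EPSC states. Asns, asparagine synthetase (chr6:7625169-7643254, minus strand), measured 7375 and 7277 in ESCs, 1839 and 1869 in D-EPSCs and 3281 and 3318 in L-EPSCs. The lowest state for Asns was therefore D-EPSC, with log2 fold changes of -1.98 ± 0.03 there and -1.15 ± 0.03 in L-EPSCs. Cth, the cystathionine gamma-lyase that releases cysteine, fell from 557 and 568 in ESCs to 69.4 and 60.7 in D-EPSCs and 118 and 109 in L-EPSCs, log2 fold changes of -3.10 ± 0.12 and -2.30 ± 0.12. Cbs, the enzyme before it in transsulfuration, had 516 and 539.5, 53.1 and 69.5 and 126 and 132 in the same states. These transsulfuration enzymes had the lowest values of any member in D-EPSCs (-3.10 and -3.10), and L-EPSCs had more of both than D-EPSCs. The proline enzymes Pycr1 (-1.36 and -1.46) and Aldh18a1 (-0.64 and -1.18) and the alanine transaminase Gpt2 (-1.82 and -1.81) completed the group.

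The serine enzymes were split. Phgdh, the entry enzyme of serine synthesis, rose in both EPSC states, from 1032 and 1011 in ESCs to 1741 and 1724 in D-EPSCs and 2219.6 and 2099.7 in L-EPSCs. Its log2 fold changes were 0.76 ± 0.04 and 1.08 ± 0.04. Psat1, the next enzyme of that path, went the other way in L-EPSCs (-0.65 ± 0.03) and stood at -0.53 in D-EPSCs, and Psph, the last, was called in neither (-0.02 and -0.13). The mitochondrial folate enzymes Mthfd2 (-0.65 and -0.61) and Aldh1l2 (-1.85 and -2.55) were called lower in both states, and Shmt2 in L-EPSCs (-0.62). Neither Shmt1 nor Mthfd1l was called.

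Among the transporters, 5 were called lower in D-EPSCs and 4 in L-EPSCs. Slc1a4, a carrier of neutral amino acids, measured 828 and 794 in ESCs, 323 and 319 in D-EPSCs and 142 and 168 in L-EPSCs. Slc7a1, a cationic amino acid carrier, measured 3783 and 3837, 1185 and 1198 and 1473 and 1514, so its EPSC values did not reach those of ESCs. Slc1a5, the glutamine carrier (-1.37 and -1.02), and Slc6a9, the glycine carrier (-0.65 and -1.95), were called lower in both states. Slc7a11 (chr3:50168858-50247535, minus strand) was the member on which the EPSC states parted. It measured 57.5 and 48.9 in ESCs, 18.4 and 23.5 in D-EPSCs and 175 and 151 in L-EPSCs, so that it fell in D-EPSCs (-1.31 ± 0.23) and rose in L-EPSCs (1.60 ± 0.23). Slc7a3, another cationic carrier that is prominent in ESCs, rose in D-EPSCs from 964 and 869 to 1959.6 and 2083 (1.14 ± 0.06). The 2 chains of the leucine exchanger, Slc7a5 and Slc3a2, were called in neither state.

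Compared directly, L-EPSCs had 11 members lower and 5 higher than D-EPSCs, shares of 31.4% and 14.3%, where 8.58% and 4.80% of all genes tested were called. Among genes with a mean of at least 10 these shares were 11.4% and 6.22%. The median over members was -0.10. The 11 called lower were 5 stress factors, 3 feedback genes and 3 transporters, led by Chac1 (-1.76 ± 0.17), Slc6a9 (-1.30 ± 0.20), Atf5 (-1.13 ± 0.07) and Nupr1 (-1.09 ± 0.08). The 5 called higher were Slc7a11 (2.91 ± 0.23), Cbs (1.08 ± 0.15), Asns (0.83 ± 0.03), Cth (0.80 ± 0.12) and Ddit4 (0.72 ± 0.06). No enzyme of the serine and folate group was called by limma, although 2 were higher and 3 lower at an unadjusted p under 0.05, and edgeR and DESeq2 each called 1 lower. The call of Ddit3 (-0.62) was lost without D-EPSC replicate 2 or either L-EPSC replicate (-0.77 to -0.46 over fits that left out 1 library) and that of Sesn2 (-0.62) without D-EPSC replicate 1 (-0.65 to -0.59).

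**Figure D2:**
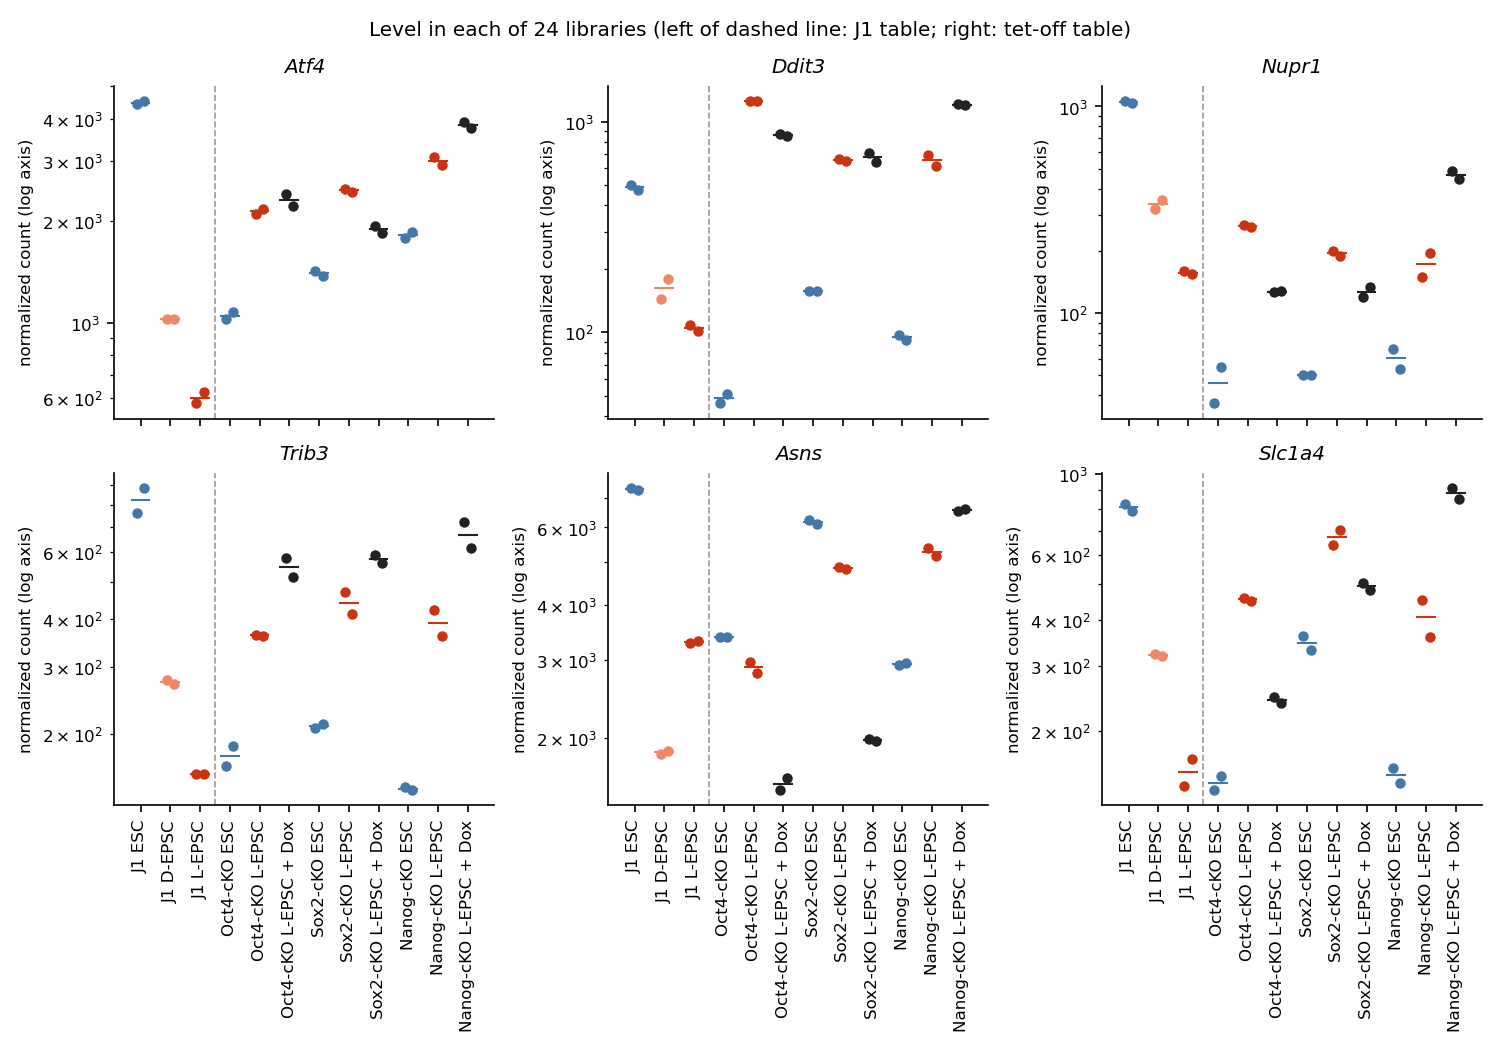
Normalized counts (log axis) of Atf4, Ddit3, Nupr1, Trib3, Asns and Slc1a4 in each of the 24 libraries, where a point is a library and a short line the mean of 2. J1 groups stand left of the dashed line and tet-off groups right of it, and the 2 sides were normalized separately. Atf4 stands at 4421 and 4512 in J1 ESCs and at 577 and 623 in J1 L-EPSCs, while in each tet-off line its ESC points lie below its untreated L-EPSC points.

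Genes of neighbouring pathways were counted by list, each list without a test of its own. Over all genes tested, 9.98% were called lower and 10.8% higher in D-EPSCs, and 11.5% and 8.80% in L-EPSCs. Of 15 further ATF4 targets, 7 were called lower and 1 higher in D-EPSCs and 6 lower in L-EPSCs, among them Vegfa in D-EPSCs (-2.58 ± 0.09) and the repressor Jdp2 in L-EPSCs (-2.91 ± 0.13). Of 20 cytosolic aminoacyl-tRNA synthetases, which load tRNAs, 2 were called lower in D-EPSCs, near the share of all genes. In L-EPSCs 7 were called lower, with Cars at -1.19 ± 0.07. Of 15 genes for eIF2, its kinases and its exchange factor, 3 were called lower in each state, led by Eif2b5 in D-EPSCs (-1.40 ± 0.04) and Eif2s2 in L-EPSCs (-1.26 ± 0.03). Of 19 endoplasmic reticulum chaperones and ATF6 or XBP1 targets, the branches of the unfolded protein response that run beside ATF4, none was called in D-EPSCs by limma, edgeR or DESeq2, although 14 were lower and 0 higher at an unadjusted p under 0.05 in limma, and 1, Xbp1 (-0.67 ± 0.05), was called lower in L-EPSCs. Of 20 other amino acid enzymes 6 were called lower and 1 higher in D-EPSCs, and 2 lower and 1 higher in L-EPSCs, with medians of -0.22 and 0.12. The betaine-homocysteine methyltransferase Bhmt fell furthest in L-EPSCs (-5.17 ± 0.56), where the branched-chain transaminase Bcat1 had -1.27 ± 0.02. In D-EPSCs Bhmt was read at 0 and 1.96 normalized counts, against 259 and 241 in ESCs. NRF2 targets, which answer oxidative stress, had 5 of 14 lower in D-EPSCs and 4 in L-EPSCs, and 13 folate and glycine cleavage genes had 4 lower and 1 higher in each.

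Several marker lists moved between the J1 states beside the members. The shares of all genes called were 9.98% lower and 10.8% higher in D-EPSCs, and 11.5% and 8.80% in L-EPSCs. Of 8 pluripotent cell markers 5 were called lower in D-EPSCs and 3 in L-EPSCs. Of 10 fibroblast markers 4 were called lower and 3 higher in D-EPSCs (median -0.22), and 7 were called lower in L-EPSCs (median -1.34). Macrophage markers had 7 and 5 of 7 called higher. Trophoblast markers had 4 of 7 called lower in D-EPSCs, and 3 lower and 2 higher in L-EPSCs, with sums of 1352 to 1360.3 in ESCs, 141 to 158 in D-EPSCs and 324 to 368 in L-EPSCs. Primitive endoderm markers had 3 and 4 of 7 called higher. By the study's methods both EPSC states were kept without feeders for some passages before sequencing, and ESCs were grown on feeders or gelatin. The part of these markers in the J1 results was not tested, and in bulk RNA fewer cells of a type and less RNA per cell cannot be told apart. Single libraries decided the weakest calls. In D-EPSCs the call of Atf3 was lost without D-EPSC replicate 2 or either ESC replicate (-0.85 to -0.52 over fits that left out 1 library), that of Slc6a9 without any 1 of the 4 libraries (-0.83 to -0.48), that of Vldlr without either ESC replicate (-1.92 to -1.15), that of Ddit4 without D-EPSC replicate 2 (-0.63 to -0.59) and that of Mthfd2 without D-EPSC replicate 1 (-0.74 to -0.55). In L-EPSCs, Atf3 (-0.62 to -0.59) and Vldlr (-1.13 to -0.77) lost their calls without any 1 of the 4 libraries and Mthfd2 (-0.63 to -0.58) without replicate 1 of either group.

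The tet-off lines give a conversion from ESC to untreated L-EPSC in 3 other genetic backgrounds. The study's methods do not give the medium of the tet-off ESCs, so their starting condition may differ from that of J1 ESCs. There most members that were called were higher in L-EPSCs. In the Oct4-cKO line 14 members (40.0%) were called higher and 4 (11.4%) lower, in the Sox2-cKO line 17 (48.6%) higher and 1 (2.86%) lower, and in the Nanog-cKO line 17 (48.6%) higher and 3 (8.57%) lower. Over all 24007 genes tested, 13.0%, 7.99% and 12.2% were called higher in these lines and 15.4%, 11.6% and 14.7% lower. Among genes with a mean of at least 10, 19.1%, 11.4% and 18.5% were called higher. The members' median log2 fold changes were 0.46, 0.60 and 0.64, over the 34 members above the floor of 3 reads, beside 0.00 over all genes in each line. Slc7a11 was the remaining member, with at least 1 group at the floor in each comparison and 0 to 6 reads in every tet-off library, so no fold is given for it there.

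Atf4 rose in all 3 lines. It went from 1025 and 1071 in Oct4-cKO ESCs to 2099.5 and 2172 in L-EPSCs (1.03 ± 0.05), from 1424 and 1369.9 to 2486 and 2430.2 in the Sox2-cKO line (0.81 ± 0.05) and from 1778 and 1854 to 3090.0 and 2915 in the Nanog-cKO line (0.72 ± 0.05). ESC and L-EPSC libraries did not overlap in any line. Ddit3 rose most among members in the Oct4-cKO line, from 46 and 51.2 to 1249 and 1245 (4.65 ± 0.08). In the Sox2-cKO line Ddit3 went from 157 and 158 to 663 and 650.5 (2.05 ± 0.08), and in the Nanog-cKO line from 97.2 and 91.9 to 692 and 616 (2.77 ± 0.08). Effects were compared between lines by interaction tests, which called 10.0%, 14.7% and 14.8% of all genes for the conversion (Oct4 against Sox2, Oct4 against Nanog and Sox2 against Nanog). Among members they called 9, 7 and 8 of 35, and among genes averaging 10 or more counts 15.1%, 21.6% and 21.9%, so the members' shares against Nanog lie near that background. Each of the 3 effects on Ddit3 differed from the other 2 in the interaction test, by 2.60 ± 0.11 between the Oct4- and Sox2-cKO lines, 1.88 ± 0.11 between Oct4 and Nanog and -0.72 ± 0.11 between Sox2 and Nanog. Nupr1 rose in all 3 lines, from 36.6 and 55.1 to 267 and 262, from 50.5 and 50.3 to 201 and 189 and from 66.9 and 53.8 to 150.2 and 195 in the Oct4-, Sox2- and Nanog-cKO lines. Atf3 was called higher in the Oct4-cKO (2.59 ± 0.39) and Nanog-cKO (1.66 ± 0.39) lines and stood at 0.28 ± 0.39 in the Sox2-cKO line, and the Oct4 and Sox2 effects differed by 2.32 ± 0.55. Atf5, Cebpb and Cebpg were called in none of the lines.

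Among the feedback genes, Trib3 (1.05, 1.07 and 1.44 in the Oct4-, Sox2- and Nanog-cKO lines), Chac1 (1.63, 2.26 and 1.86), Ddit4 (1.99, 1.41 and 1.85) and Vldlr (2.54, 1.57 and 1.73) were called higher in every line. Ddit4, which dampens mTORC1, is an example of the size of these changes: it stood at 813 and 840.2 in Oct4-cKO ESCs and at 3305 and 3276 in their L-EPSCs. Eif4ebp1 was called higher in the Sox2-cKO line (0.93). Sesn2 was the exception, called lower in the Oct4-cKO line (-0.66) and at -0.37 and -0.38 in the others.

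Among the enzymes, Mthfd2, Aldh18a1 and Gpt2 were called higher in all 3 lines. Mthfd2 went from 365 and 364 to 1253 and 1197 in the Nanog-cKO line (1.74 ± 0.05), beside 1.26 ± 0.05 in the Sox2-cKO and 0.87 ± 0.05 in the Oct4-cKO line. Asns was called in the Nanog-cKO line alone, from 2933 and 2963 to 5392 and 5176 (0.84 ± 0.04). In the Oct4-cKO line Asns went from 3385 and 3383 to 2977 and 2809.8, and in the Sox2-cKO line from 6251 and 6117 to 4872 and 4826. The Nanog-cKO effect on Asns differed from that of the Oct4-cKO (-1.07 ± 0.05) and the Sox2-cKO line (-1.19 ± 0.05). Cth fell in the Nanog-cKO line, from 350.3 and 367 to 109.7 and 139.7 (-1.53 ± 0.23), and was called in neither other line, with differences of 1.48 ± 0.32 and 1.99 ± 0.32 against them. Cbs was called in no line. The cytosolic Shmt1 was called lower in the Oct4-cKO (-1.03) and Nanog-cKO (-0.88) lines and the mitochondrial Shmt2 in the Oct4-cKO line (-0.87).

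Slc7a3 was the member called lower in all 3 lines. It went from 1479 and 1407 to 62.1 and 63.8 in the Oct4-cKO line (-4.50 ± 0.28), from 2334 and 2433 to 462 and 446 in the Sox2-cKO line (-2.39 ± 0.28) and from 1360.3 and 1318 to 122 and 90.7 in the Nanog-cKO line (-3.65 ± 0.28). ESCs were far above L-EPSCs each time. Slc1a4 rose in all 3 lines (1.65, 0.95 and 1.41). The leucine exchanger subunit Slc7a5 was called higher in the Sox2-cKO (0.90) and Nanog-cKO lines (1.11), and Slc3a2, Slc7a1 and Slc1a5 in the Sox2-cKO line alone (0.75, 0.80 and 0.81). The Slc7a1 effect of the Sox2-cKO line differed from that of both other lines (-0.86 ± 0.09 for Oct4 minus Sox2 and 0.95 ± 0.09 for Sox2 minus Nanog), while the differences for Slc3a2 and Slc1a5 were not called.

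The tet-off conversions and the J1 conversion share no libraries and can be set side by side. Called lower in J1 L-EPSCs and higher in all 3 tet-off lines were 10 members (28.6%), namely Atf4, Ddit3, Nupr1, Trib3, Chac1, Vldlr, Mthfd2, Aldh18a1, Gpt2 and Slc1a4. The same pattern was found in 1.03% of the 20812 genes tested in both tables and in 1.52% of the 13257 with a mean of at least 10 in both. Among the 10, the J1 calls of Vldlr and Mthfd2 and the Oct4-cKO call of Aldh18a1 were lost in fits that left out 1 library. With at least 1 tet-off line in place of all 3, the members numbered 18 (51.4%), beside 4.18% of the genes tested. Higher in all 3 tet-off lines, whatever J1 did, were 11 (31.4%, beside 4.19%), and lower in all 3 was 1 (2.86%, beside 5.39%). Lower in J1 and lower in at least 1 tet-off line were 2 members, Cth and Shmt2 (5.71%, beside 4.29%). Phgdh was the member called higher in J1 and in a tet-off line (Oct4-cKO, 0.70 ± 0.05), a pattern of 2.25% of the genes tested. Whether the J1 effect differs from the tet-off effects was not tested. J1 and the tet-off lines differ in cell line and in fibroblast and macrophage markers. In J1 ESCs the fibroblast markers summed to between 100423 and 102587, none of 10 at 0. In tet-off ESCs they summed to between 282 and 589, with 2 to 3 of 9 at 0. The macrophage markers summed to between 15244 and 15257 in J1 L-EPSCs and between 389 and 467 in untreated tet-off L-EPSCs. The 2 tables were normalized separately. Cell line, any difference in ESC medium and these markers cannot be told apart here. Some lineage markers moved in the tet-off conversions too. Over all genes tested, 15.4%, 11.6% and 14.7% were called lower in the Oct4-, Sox2- and Nanog-cKO lines and 13.0%, 7.99% and 12.2% higher. Pluripotent cell markers had 4, 1 and 5 of 8 called lower in these lines, and the Sox2-cKO count lies near the share of all genes. Primitive endoderm markers had 5, 2 and 3 of 7 called higher, and 4 lower in the Sox2-cKO and 1 in the Nanog-cKO line. Of 7 trophoblast markers 4 were called higher in the Oct4-cKO line and 3 in the Nanog-cKO line, and 3 lower in the Sox2-cKO line. Their sums went from 1489 and 1591 to 3934 and 4038 in the Oct4-cKO line, from 4979 and 5011 to 1695 and 1716 in the Sox2-cKO line, and from 391 and 421 to 459 and 492 in the Nanog-cKO line. The part of these shifts in the conversion results was not tested.

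**Figure D3:**
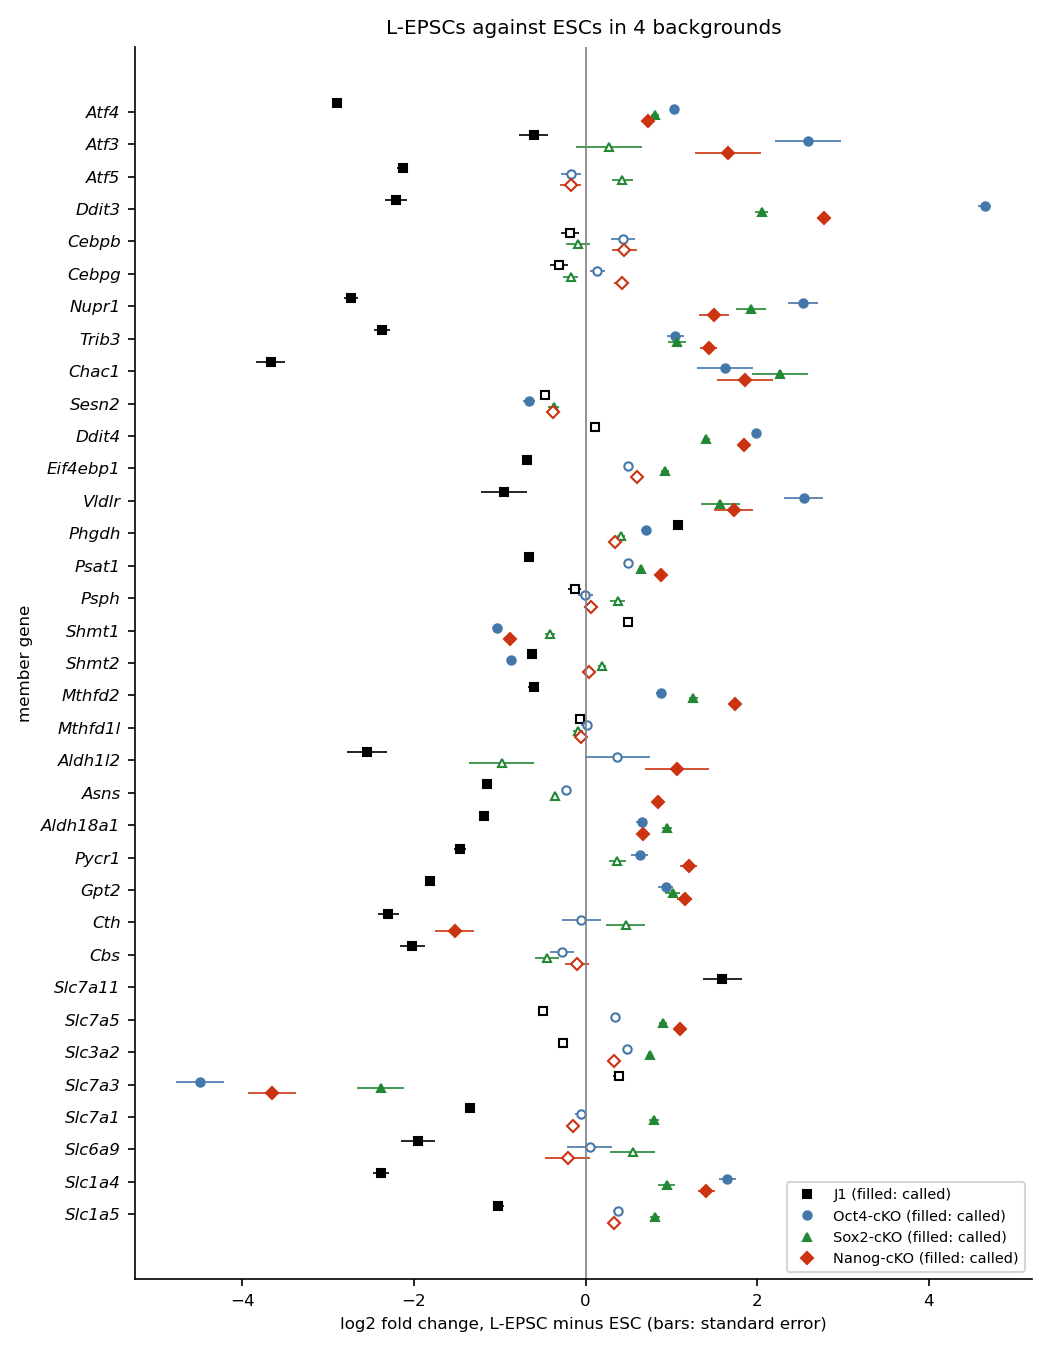
Log2 fold changes of L-EPSCs against ESCs for each member in J1 (black squares) and the Oct4-, Sox2- and Nanog-cKO lines (coloured), with bars for the standard error from 2 libraries a group. Filled symbols are called. For Atf4, Ddit3, Nupr1, Trib3 and Chac1 the J1 value lies left of 0 and all 3 tet-off values right of it, and Slc7a3 shows the tet-off values between -4.50 and -2.39.

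The lists of neighbouring genes were counted in the tet-off conversions too, where 13.0%, 7.99% and 12.2% of all genes were called higher and 15.4%, 11.6% and 14.7% lower. Of the 15 further ATF4 targets, 5, 6 and 9 were called higher in the Oct4-, Sox2- and Nanog-cKO lines and 1, 0 and 2 lower (in the Sox2-cKO line 0 also by edgeR and DESeq2, with 2 lower at an unadjusted p under 0.05 in limma). The glutamine carrier Slc38a2 was among the lower ones (-1.39 in the Oct4-cKO and -0.67 in the Nanog-cKO line), as was Stc2 in the Nanog-cKO line (-1.15), while Ero1a, an oxidase of the endoplasmic reticulum, was at 2.19 ± 0.05 in Oct4-cKO cells and Jdp2 at 2.14 ± 0.21 and 2.52 ± 0.21 in the others. Of the 19 chaperones and ATF6 or XBP1 targets, 8, 3 and 9 were called higher and 1, in the Nanog-cKO line, lower, with medians of 0.54, 0.39 and 0.56. Among the higher ones were Dnajc3 (1.06 ± 0.06, Oct4-cKO), Sdf2l1 (0.72 ± 0.07, Sox2-cKO) and Calr (1.51 ± 0.02, Nanog-cKO). Fewer calls fell among the tRNA synthetases. Of the 20 tRNA synthetases, whose medians were -0.02, 0.11 and 0.02, Cars was called higher in the Sox2-cKO line (0.95 ± 0.04) and Gars higher and Wars lower in the Nanog-cKO line (1.02 and -0.95). In the Oct4-cKO line limma, edgeR and DESeq2 called 0, with 6 higher and 9 lower at an unadjusted p under 0.05 in limma. Of the 15 eIF2 genes 2, 2 and 3 were called in either direction, with medians of -0.11, 0.10 and 0.11, among them the heme-regulated kinase Eif2ak1 (-1.08 ± 0.05 in Oct4-cKO cells). NRF2 targets had 4, 2 and 7 of 14 called higher, and 1 lower in each of the Oct4- and Nanog-cKO lines, with the malic enzyme Me1 at 2.07 ± 0.08 in the Sox2-cKO line. Of the 20 other amino acid enzymes 2, 2 and 5 were called higher and 5, 3 and 4 lower, with medians of 0.00, -0.06 and -0.05. Threonine dehydrogenase Tdh was lower in all 3 lines (-3.07, -2.14 and -2.63) and Bhmt higher (1.48, 2.15 and 1.23). The folate and glycine cleavage genes had 2, 1 and 2 of 14 called lower and 2, 0 and 1 higher, with medians of -0.08, 0.01 and -0.10. The Sox2-cKO count of 0 higher held for limma, edgeR and DESeq2, with 5 higher at an unadjusted p under 0.05 in limma. The thymidylate synthase Tyms was at -1.21 ± 0.07 in the Oct4-cKO line and the folate dehydrogenase Aldh1l1 at 2.14 ± 0.09 in the Nanog-cKO line.

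Calls near the limit depended on single libraries here too. In the Oct4-cKO line these were Pycr1 (lost without ESC replicate 1 or untreated L-EPSC replicate 1, 0.47 to 0.80), Aldh18a1 (without ESC replicate 1, 0.57 to 0.74) and Sesn2 (without untreated L-EPSC replicate 2, -0.73 to -0.58). In the Nanog-cKO line they were Atf3 (without ESC replicate 2, 1.06 to 2.27) and Aldh1l2 (1.07, lost without ESC replicate 2 or untreated L-EPSC replicate 2, 0.50 to 1.64).

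Dox switches off the transgene that supplies the factor, so the last comparisons ask how the pathway differed when Oct4, Sox2 or Nanog was depleted in L-EPSCs. Here a call also needed a log2 fold change beyond 1. In the Oct4-cKO line 8 members (22.9%) fell and 1 (2.86%) rose, in the Sox2-cKO line 6 (17.1%) fell and 3 (8.57%) rose, and in the Nanog-cKO line 6 (17.1%) rose and none fell by limma, edgeR or DESeq2, with 6 lower at an unadjusted p under 0.05 in limma. Over all genes tested, 10.8%, 7.32% and 2.59% were called lower and 8.53%, 7.79% and 2.80% higher in these lines. Among genes with a mean of at least 10, 14.3%, 9.45% and 3.25% were called lower and 10.2%, 9.66% and 3.44% higher. The members' share called higher in the Sox2-cKO line lies near both backgrounds. The members' medians were -0.57, -0.41 and 0.25, beside 0.00 over all genes. The untreated L-EPSC libraries also served in the conversions, so Dox and conversion effects of a line are not independent. By the counts given above, the fall of Nanog message was partial, and smaller than the falls of Pou5f1 and Sox2. The study reports loss of Nanog protein with Dox. In comparisons of the Nanog-cKO line with the others, the factor and the extent of its depletion cannot be told apart.

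Cth and Cbs, the transsulfuration enzymes, had the lowest log2 fold change of any member in the Sox2- and the Oct4-cKO line, respectively. In the Oct4-cKO line Cth fell from 575 and 595 to 33.4 and 68.8 (-3.58 ± 0.23) and in the Sox2-cKO line from 536 and 503 to 41.2 and 31.9 (-3.80 ± 0.23). Nanog-cKO cells were already low before Dox, at 109.7 and 139.7, and had 109 and 130.4 with it. The interaction tests called 1, 11 and 9 members for Dox (Oct4 against Sox2, Oct4 against Nanog and Sox2 against Nanog), 6.81%, 14.8% and 11.3% of all genes, and 9.33%, 20.5% and 15.9% of genes averaging 10 or more counts. The Nanog effect on Cth differed from both others, by -3.52 ± 0.32 for Oct4 minus Nanog and -3.75 ± 0.32 for Sox2 minus Nanog (adjusted p = 2e-07 and 1.3e-07). Cbs fell from 428 and 419 to 18.4 and 27.8 in the Oct4-cKO line (-4.17 ± 0.14) and from 504 and 479.9 to 125 and 156 in the Sox2-cKO line (-1.81 ± 0.14), and went from 344 and 306 to 220.5 and 216 in the Nanog-cKO line. It was the 1 member called for a difference between the Oct4 and Sox2 effects (-2.35 ± 0.20). Smaller differences with an adjusted p under 0.05 in the interaction test, such as that of Phgdh (-0.79 ± 0.07), did not pass the limit of 1. The remaining enzymes called were Pycr1 (-1.28 ± 0.10) and Gpt2 (-1.29 ± 0.09) in the Oct4-cKO line and Asns (-1.29 ± 0.04) and Shmt1 (-1.08 ± 0.05) in the Sox2-cKO line, all lower.

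Chac1 and Slc7a3 went in opposite directions in the Nanog-cKO line and the other two lines. Chac1 fell from 70.1 and 68.3 to 10.4 and 7.77 in the Oct4-cKO line and from 87.5 and 90.8 to 16.5 and 33.5 in the Sox2-cKO line, and rose from 109 and 134 to 315 and 283 in the Nanog-cKO line. Those are log2 fold changes of -2.81 ± 0.33, -1.87 ± 0.33 and 1.30 ± 0.33, and the Nanog effect differed from both others (-4.12 ± 0.46 for Oct4 minus Nanog and -3.18 ± 0.46 for Sox2 minus Nanog). Slc7a3 fell from 62.1 and 63.8 to 8.06 and 23.3 in the Oct4-cKO line and from 462 and 446 to 97.3 and 108 in the Sox2-cKO line, and rose from 122 and 90.7 to 263 and 252 in the Nanog-cKO line. Its log2 fold changes were -2.11 ± 0.28, -2.14 ± 0.28 and 1.28 ± 0.28, with differences of -3.39 ± 0.39 and -3.41 ± 0.39 against the Nanog effect. Nupr1 showed the same contrast between the Oct4- and Nanog-cKO lines, falling in the Oct4-cKO line (-1.05 ± 0.18) and rising in the Nanog-cKO line from 150.2 and 195 to 486 and 445 (1.44 ± 0.18), a difference of -2.49 ± 0.25.

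Cebpb was the member called higher in all 3 lines. It rose from 107 and 105 to 939 and 776 in the Oct4-cKO line (2.99 ± 0.14), from 115 and 109 to 604 and 638 in the Sox2-cKO line (2.46 ± 0.14) and from 72.4 and 84.6 to 195 and 166 in the Nanog-cKO line (1.19 ± 0.14). The Nanog effect was smaller than both others in the interaction test (1.80 ± 0.20 and 1.27 ± 0.20). Atf4 itself passed the fold limit in none of the lines: it had 2395 and 2214 with Dox in the Oct4-cKO line (0.11 ± 0.05), 1929 and 1842 in the Sox2-cKO line (-0.38 ± 0.05) and 3906 and 3747 in the Nanog-cKO line (0.35 ± 0.05). Ddit3 was called in none (-0.53, 0.04 and 0.88), though its Oct4 and Nanog effects differed by -1.41 ± 0.11. The other calls were Slc7a5 lower in the Oct4-cKO line (-1.21), Slc6a9 (1.18) and Atf3 (1.32) higher in the Sox2-cKO line, and Atf5 (1.19) and Slc1a4 (1.13) higher in the Nanog-cKO line.

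**Figure D4:**
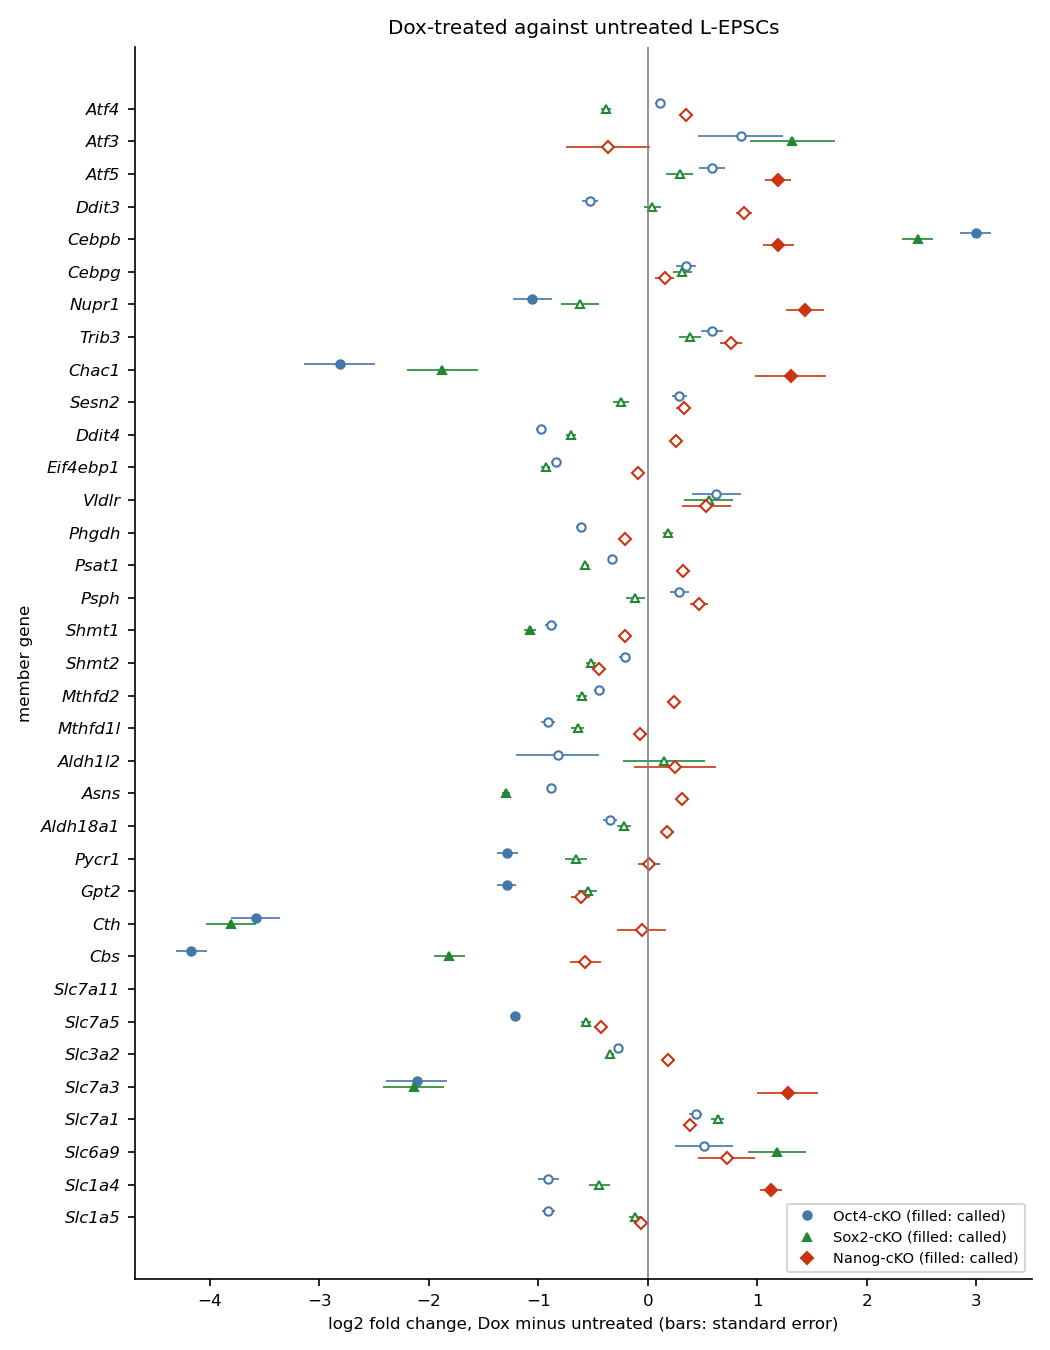
Log2 fold changes of Dox-treated against untreated L-EPSCs for each member in the Oct4- (circles), Sox2- (triangles) and Nanog-cKO (diamonds) lines, with standard error bars and filled symbols for calls. Cth lies at -3.58 and -3.80 in the Oct4- and Sox2-cKO lines and at -0.05 in the Nanog-cKO line, Chac1 and Slc7a3 lie on both sides of 0, and Cebpb lies right of 0 in all 3 lines.

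**Figure D5:**
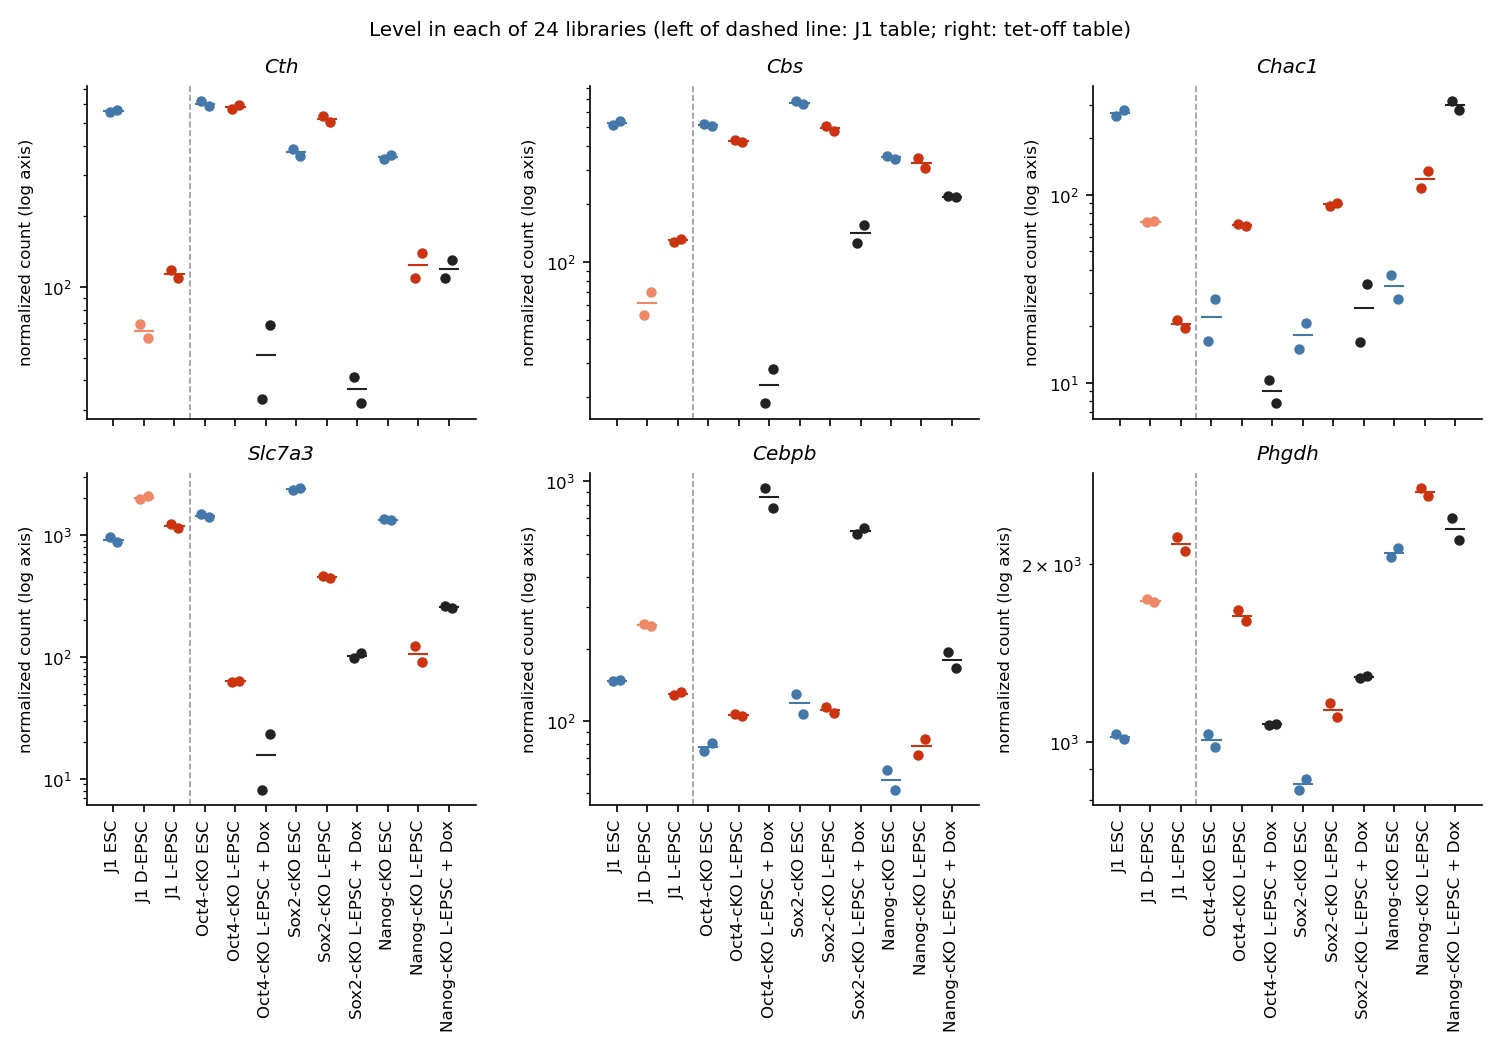
Normalized counts (log axis) of Cth, Cbs, Chac1, Slc7a3, Cebpb and Phgdh in each of the 24 libraries, where a point is a library and a short line the mean of 2, with J1 groups left of the dashed line. Dox-treated libraries are black. Cth is at 33.4 and 68.8 in Dox-treated Oct4-cKO cells and 41.2 and 31.9 in Dox-treated Sox2-cKO cells, below the other tet-off groups.

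The lists beside ATF4 were counted with Dox too. Over all genes tested, 10.8%, 7.32% and 2.59% were called lower in the Oct4-, Sox2- and Nanog-cKO lines and 8.53%, 7.79% and 2.80% higher. Of the 15 further ATF4 targets, 2 fell and 1 rose in the Oct4-cKO line and 1 fell in the Sox2-cKO line, counts near the shares of all genes. Among them were the mitochondrial Pck2 at -1.79 ± 0.08 and the secreted factor Gdf15 at -1.60 ± 0.20. The RNA-sensing eIF2 kinase Eif2ak2 rose in both lines (2.19 ± 0.12 and 1.65 ± 0.12). Among 14 folate and glycine cleavage genes, 4, 3 and 1 fell in the Oct4-, Sox2- and Nanog-cKO lines, and Amt, of the glycine cleavage system, was at -1.81 ± 0.07 and -1.39 ± 0.07 in the first 2 lines. Of the other amino acid enzymes 4 fell in each of these lines and 1 and 2 rose, with Bcat1 at -1.57 ± 0.04 and -2.18 ± 0.04, and in the Nanog-cKO line none was called by limma, edgeR or DESeq2, with 6 higher and 8 lower at an unadjusted p under 0.05 in limma. At most 1 tRNA synthetase and 1 chaperone was called in any line (Vars, -1.04 ± 0.04, and Hyou1, -1.02 ± 0.04). NRF2 targets had 2, 3 and 0 of 14 called higher and 1, 1 and 3 lower, with Hmox1 at 2.31 ± 0.04 in the Oct4-cKO line and Me1 at -1.50 ± 0.08 in the Nanog-cKO line, where edgeR and DESeq2 also called 0 higher and 3 were higher at an unadjusted p under 0.05 in limma.

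Markers of other lineages moved with Dox. The 7 trophoblast markers summed to between 3934 and 4038 in untreated Oct4-cKO L-EPSCs and between 26138 and 26277 with Dox, to between 1695 and 1716 and between 10732 and 10803 in the Sox2-cKO line, and to between 459 and 492 and between 803 and 835 in the Nanog-cKO line, none of the 7 at 0. Called higher were 5, 6 and 1 of these 7 in the Oct4-, Sox2- and Nanog-cKO lines. Primitive endoderm markers went both ways, with 1, 2 and 0 of 7 called higher and 2, 2 and 1 lower. The 0 held for limma, edgeR and DESeq2, with 2 higher at an unadjusted p under 0.05 in limma. All 8 pluripotent cell markers fell in the Oct4- and Sox2-cKO lines and 1 of 8, Nanog, in the Nanog-cKO line. The shares of all genes called are those given above for Dox. The part of these shifts in the members' Dox results was not tested. Without single libraries the Nanog-cKO calls of Chac1 (without replicate 1 of either group, 1.16 to 1.45), Slc7a3 (1.06 to 1.49) and Slc1a4 (0.96 to 1.29, both without untreated replicate 2) were lost, as was that of Atf3 in the Sox2-cKO line (without either Dox replicate or untreated replicate 2, 0.81 to 1.83).

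The 9 members with the promoter motif can be set beside the 20 whose window did not hold it. In J1 all 9 were called lower in D-EPSCs, with a median log2 fold change of -1.54, beside 10 of 20 and -0.57 without the motif. In J1 L-EPSCs 8 of 9 were called lower and Slc7a11 higher, beside 11 of 20 lower without the motif, with medians of -1.46 and -0.62. Of all genes tested, 9.98% were called lower in D-EPSCs and 11.5% in L-EPSCs. In both states the calls of Atf3 and Vldlr were lost in fits that left out 1 library. In the tet-off conversions 7, 5 and 8 of the 9 were called higher in the Oct4-, Sox2- and Nanog-cKO lines, beside 7, 9 and 7 of the 20 without. Of all genes tested, 13.0%, 7.99% and 12.2% were called higher in these lines. The Oct4-cKO call of Pycr1 and the Nanog-cKO call of Atf3 were lost in fits that left out 1 library. The medians were 1.64, 1.01 and 1.47 over the 8 above the floor and 0.29, 0.49 and 0.34 without the motif. With Dox the medians were -0.89, -0.53 and 0.65 with the motif and -0.30, -0.29 and 0.25 without. Atf4 and Ddit3, whose windows did not hold these letters, had -2.90 and -2.21 in J1 L-EPSCs, further from 0 than the median of the 9. These are descriptions of a few genes, with no test.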

How the data were processed

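The deposited values are signal per gene, that is, read counts divided by DESeq2 size factors by the authors, in 1 table for J1 and 1 for the tet-off lines. The authors prepared poly(A) libraries, sequenced them in pairs, trimmed reads with Trim Galore 0.6.4, aligned them to mm9 (NCBIM37) with STAR 2.7.9a and counted with HTSeq 0.11.2. The strand setting is not given in the sources used here, so reads of overlapping antisense genes may be mixed. The submitters' notes give 4.1.1 as the version of DESeq2.

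Whole reads were recovered from the deposited values (100% of values within 0.05 of a whole number) and used for edgeR 4.0.16 and DESeq2 1.42.0. Comparisons were tested with limma-trend (limma 3.58.1, R 4.3.3) after taking log2(normalized count + 1), a scale that understates the change of low genes. All groups of a table entered 1 fit, and every gene with 2 or more reads over the table was kept (21533 in J1 and 24007 in the tet-off table). Adjusted p-values are Benjamini-Hochberg values over all genes tested. A call took an adjusted p below 0.05 together with a log2 fold change past 0.6 for cell states and conversions or 1 for Dox. Groups came from the labels. A group with at most 3 reads in each library was taken as at the floor. The scripts were tested on simulated data.

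The members and the lists of other genes were chosen with earlier results of these data known. All 35 members are reported. From the other lists at most 2 called genes per direction and comparison were named, those with the largest log2 fold change among genes with a mean of at least 10, and Pou5f1, Sox2 and Nanog as a check of the labels. Alternatives were edgeR with TMM, DESeq2, TMM or median scaling, a mean expression filter of 10, a pseudocount of 0.1, groups compared alone, a replicate block, another fold threshold and leaving out each library. Promoter windows came from RefSeq on GRCm38.p6, and gene positions are on NCBIM37. Figures were drawn with matplotlib 3.10.9.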

Additional observations from a re-analysis of the deposited data

Results flagged for a closer look

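Among 210 tests of whether a member's effect differed between 2 tet-off lines, 45 were called. The share of all genes called in such tests was 6.81%, 14.8% and 11.3% for the Dox effects (Oct4 minus Sox2, Oct4 minus Nanog and Sox2 minus Nanog) and 10.0%, 14.7% and 14.8% for the conversion effects, against 1, 11, 9, 9, 7 and 8 of the 35 members. Among genes averaging 10 or more counts the shares were 9.33%, 20.5% and 15.9% for Dox and 15.1%, 21.6% and 21.9% for the conversion, so the members' conversion counts against Nanog lie near that background. Values are differences of log2 fold changes from the limma interaction contrasts. Tests that share a line share its libraries.

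For the Dox effect, the Oct4-cKO minus Nanog-cKO difference was called for Ddit3 (-1.41), Cebpb (1.80), Nupr1 (-2.49), Chac1 (-4.12), Ddit4 (-1.23), Asns (-1.20), Pycr1 (-1.30), Cth (-3.52), Cbs (-3.60), Slc7a3 (-3.39) and Slc1a4 (-2.03). The Sox2-cKO minus Nanog-cKO difference was called for Atf3 (1.68), Cebpb (1.27), Nupr1 (-2.06), Chac1 (-3.18), Asns (-1.61), Cth (-3.75), Cbs (-1.24), Slc7a3 (-3.41) and Slc1a4 (-1.57). Between the Oct4- and Sox2-cKO lines the difference was called for Cbs (-2.35). Cebpb stood apart in sign, since its Dox effect was higher in the Oct4- and Sox2-cKO lines than in the Nanog-cKO line, as was that of Atf3 in the Sox2-cKO line.

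For the conversion effect, the Oct4-cKO minus Sox2-cKO difference was called for Atf3 (2.32), Atf5 (-0.60), Ddit3 (2.60), Vldlr (0.97), Shmt1 (-0.62), Shmt2 (-1.06), Slc7a3 (-2.11), Slc7a1 (-0.86) and Slc1a4 (0.70). The Oct4-cKO minus Nanog-cKO difference was called for Ddit3 (1.88), Nupr1 (1.04), Shmt2 (-0.91), Mthfd2 (-0.87), Asns (-1.07), Cth (1.48) and Slc7a5 (-0.77). The Sox2-cKO minus Nanog-cKO difference was called for Atf5 (0.60), Ddit3 (-0.72), Aldh1l2 (-2.04), Asns (-1.19), Pycr1 (-0.84), Cth (1.99), Slc7a3 (1.27) and Slc7a1 (0.95).

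Leaving out 1 library ended 7 of the 45 calls. These were Atf3 for Sox2 minus Nanog with Dox (1.17 to 2.19), and, for the conversion, Atf5 (-0.73 to -0.47), Vldlr (0.79 to 1.14) and Shmt1 (-0.67 to -0.56) for Oct4 minus Sox2, and Atf5 (0.47 to 0.74), Aldh1l2 (-2.62 to -1.47) and Slc7a3 (1.05 to 1.48) for Sox2 minus Nanog. The Aldh1l2 call was lost without untreated Nanog-cKO L-EPSC replicate 2 and the Shmt1 call without Oct4-cKO ESC replicate 1.

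In the step from ESC to L-EPSC, 10 members were lower in both J1 L-EPSC libraries than in both J1 ESC libraries and moved the other way in all 3 tet-off lines. Their J1 log2 fold changes were -2.90 for Atf4, -2.21 for Ddit3, -2.73 for Nupr1, -2.37 for Trib3, -3.67 for Chac1, -0.95 for Vldlr, -0.61 for Mthfd2, -1.18 for Aldh18a1, -1.81 for Gpt2 and -2.39 for Slc1a4. The J1 calls of Vldlr and Mthfd2 and the Oct4-cKO call of Aldh18a1 were lost in fits that left out 1 library. The difference between J1 and the tet-off lines was not tested.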

How the results depend on the processing

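Of 309 log2 fold changes of single members, 146 were called. None of these 146 changed direction under edgeR, DESeq2, TMM scaling, median centring, a pseudocount of 0.1, a mean of at least 10, groups compared alone, the replicate block or the loss of 1 library, while 19 uncalled values near 0 did (lowest adjusted p in the limma fit 0.43). Median centring ended 4 calls, Atf3 (-0.59) and Mthfd2 (-0.58) for J1 L-EPSC against ESC, Ddit3 (-0.60) for L-EPSC against D-EPSC and Pycr1 (0.58) for the Oct4-cKO conversion, and comparing groups alone ended that of Aldh1l2 in the Nanog-cKO conversion. Leaving out 1 library ended 19 calls and made 3. The fold threshold set several counts of members called. At a threshold of 1 in place of 0.6 they were 7 for L-EPSC against D-EPSC, 11 and 9 for the Oct4- and Sox2-cKO conversions, and 4 for each of the 3 differences between conversions. At 0.6 in place of 1 they were 18 and 16 for Dox in the Oct4- and Sox2-cKO lines, and 6, 20 and 18 for the differences Oct4 minus Sox2, Oct4 minus Nanog and Sox2 minus Nanog. Without 1 library the Oct4 minus Sox2 count for Dox ranged from 1 to 2, reaching 2 without Sox2-cKO Dox replicate 1, and the Dox count in the Nanog-cKO line from 4 to 6. TMM scaling ended 1 called difference, that of Atf5 between the Sox2- and Nanog-cKO conversions (0.59). Same-numbered replicates did not deviate together (correlations of -0.028 to 0.016), so they share only a number, and the replicate block left the count of members called as it was in all 15 comparisons, for example 25 for each EPSC state against J1 ESCs.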
